A study of Mus musculus with 6 samples.

Results

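The 40 genes described here encode the machinery with which the endoplasmic reticulum (ER) folds, checks and exports secreted protein, together with the unfolded protein response (UPR) that adjusts this machinery. They were taken by name from a list of ER chaperone, UPR and cargo export genes, by a rule that sets no limit on their measured values but that was written with earlier results of these data known, and all 40 of 40 were found among the 53726 genes of the RNA-seq table. RNA-seq covered Achilles tendon of mice at 4 weeks of age, with 1 library for each of 3 genotypes. Control mice carried floxed Dicer alleles and no Cre (Dicer f/f), ScxHt mice carried the ScxCre knock-in allele with intact Dicer (ScxCre/+ Knock In:Dicer +/+), and Dicer cKO mice carried ScxCre together with both floxed alleles (ScxCre/+ Knock In:Dicer f/f). Dicer is the RNase that cuts microRNA precursors. Cre was driven by the promoter of Scx, a transcription factor of tendon fibroblasts, and the knock-in inactivates 1 Scx allele, so that ScxHt and Dicer cKO share the loss of this allele and Control does not carry it. Each library came from 1 mouse, by the supplement of the study.

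Collagen-making fibroblasts of tendon depend on the ER, because procollagen is folded, hydroxylated, disulfide bonded and assembled there before it is exported in large COPII carriers. When unfolded protein collects in the ER, 3 kinds of sensor respond. IRE1 (Ern1) splices Xbp1 mRNA, PERK (Eif2ak3) phosphorylates a translation factor so that Atf4 mRNA is translated, and ATF6 is cut in the Golgi to release a transcription factor. XBP1 and ATF6 then act on chaperone and degradation genes, and ATF4 acts on amino acid and stress genes such as Ddit3, Trib3, Chac1 and Asns. Gene counts show the amount of mRNA and give no measure of Xbp1 splicing, ATF6 cleavage or kinase activity.

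Known binding sequences of these factors are shown first, as a description of the promoters. They do not divide the genes by factor, since 17 genes held none of the 4 motifs searched and Herpud1 held more than 1. RefSeq promoter windows on GRCm38.p6, from 250 bases before to 50 bases after the transcript start, were at hand for 34 of the 40 genes. Atf6, Creb3l1, Hyou1, Manf, Derl1 and Kdelr2 had no entry. Both strands were searched for 4 motifs. The ER stress response element (ERSE) is CCAAT, then 9 bases of any kind, then CCACG. ERSE-II is ATTGG, 1 base of any kind, then CCACG. The unfolded protein response element (UPRE) is TGACGTGG and shares the bases CCACG, read on its other strand, with both ERSE forms. The C/EBP-ATF response element (CARE), bound by ATF4 with a partner, is TGATGNAA. ERSE stood in 9 of the 34 windows (26.5%) and in 0.137% of the windows of all 27025 genes of the RefSeq table. ERSE-II stood in 2 of 34 (5.88%) against 0.0444% of all genes, UPRE in 3 (8.82%) against 0.714%, and CARE in 4 (11.8%) against 4.51%. A match describes the letters of the window and is not evidence of binding in tendon.

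The ERSE sites of the most abundant folding genes, of 3 less abundant ones and of the ubiquitin ligase Syvn1 are given below, with the fixed letters in capitals, 5′ to 3′ on the strand named. Hsp90b1 held 2 sites in opposite orientation.
Hspa5, chr2:34772020-34772048, plus strand: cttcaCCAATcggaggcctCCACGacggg
Hsp90b1, chr10:86705528-86705556, plus strand: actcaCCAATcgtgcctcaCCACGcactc
Hsp90b1, chr10:86705633-86705661, minus strand: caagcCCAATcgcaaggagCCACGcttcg
Calr, chr8:84847070-84847098, plus strand: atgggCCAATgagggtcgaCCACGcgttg
Canx, chr11:50325795-50325823, minus strand: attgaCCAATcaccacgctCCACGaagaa
Pdia6, chr12:17266486-17266514, plus strand: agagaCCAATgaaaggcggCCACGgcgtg
Creld2, chr15:88819515-88819543, minus strand: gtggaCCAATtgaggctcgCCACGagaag
Dnajc3, chr14:118937822-118937850, plus strand: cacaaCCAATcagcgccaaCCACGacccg
Syvn1, chr19:6046527-6046555, plus strand: cgcaaCCAATcggcggtagCCACGggaac

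The other 3 motifs are shown for every gene that held them, because they stood in few genes: 3 of the 6 export genes held a UPRE, all 3 ATF4 target genes and Herpud1 a CARE, and Dnajb11 and Herpud1 an ERSE-II. The first pair below is ERSE-II, the next 3 are UPRE and the last 4 are CARE.
Dnajb11, chr16:22857843-22857871, plus strand: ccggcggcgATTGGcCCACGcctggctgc
Herpud1, chr8:94386368-94386396, plus strand: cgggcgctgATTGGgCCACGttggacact
Kdelr3, chr15:79516369-79516394, minus strand: gccgcgcggTGACGTGGcggggcggc
Sec23a, chr12:59011995-59012020, minus strand: cctccccttTGACGTGGcagaggcgg
Sec24d, chr3:123267461-123267486, plus strand: ccgggcgccTGACGTGGcactagcaa
Asns, chr6:7693216-7693241, minus strand: ccagccacaTGATGaAActtcccgca
Chac1, chr2:119351040-119351065, minus strand: tggcaggagTGATGcAAcggcaggga
Herpud1, chr8:94386308-94386333, minus strand: ggtgcgggcTGATGcAAcccgccgtg
Trib3, chr2:152344030-152344055, plus strand: ccgcccggcTGATGtAAacctgagct

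The ERSE sites began 44 bases (Syvn1) to 212 bases (Hsp90b1) before the start of their gene. The UPRE of Kdelr3 and Sec24d began 30 and 26 bases before it, and that of Sec23a 6 bases after it. Derl3 also held an ERSE but was hardly transcribed in any library.

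**Figure D1:**
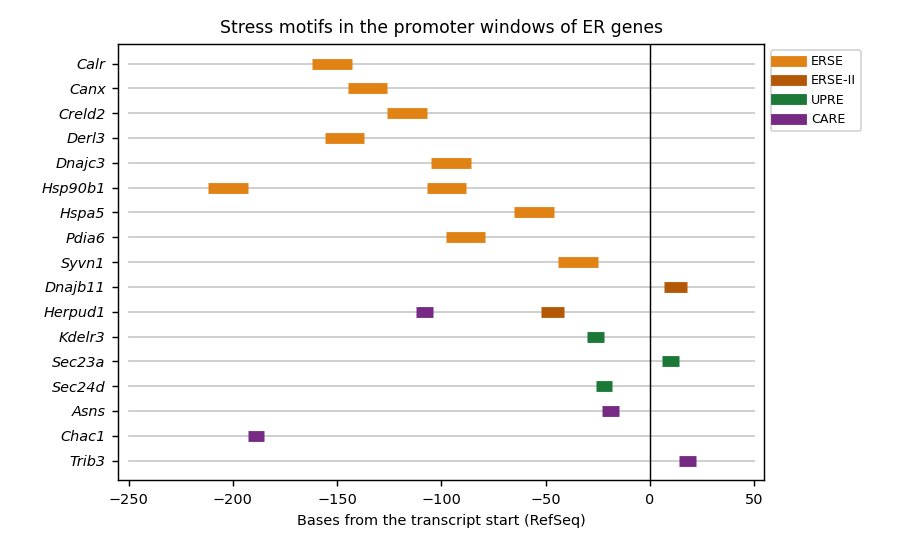
Positions of the 4 motifs in the promoter windows of the 17 ER genes that held at least 1, in bases from the RefSeq transcript start (vertical line), 1 row a gene and 1 colour a motif. All ERSE sites lie before the start, between 212 bases (Hsp90b1) and 44 bases (Syvn1) at their first base, while Dnajb11, Sec23a and Trib3 have their motif just after it.

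The counts summed to 16244232 for Control, 15769301 for ScxHt and 14959399 for Dicer cKO. With 1 library per genotype no test between genotypes was possible, and each ratio is given with a 95% interval that covers the counting error of the reads only and not the spread between mice. A gene was tested against the thresholds with a mean of more than 50 normalized counts over both libraries (baseMean), and was called lower below a ratio of 0.60 and higher above 0.74 on the log2 scale (close to the reciprocal of 0.60), the limits in the methods of the study. Dicer1, the targeted gene, had 1919 (Control), 2025 (ScxHt) and 1621 (Dicer cKO) counts, and its Dicer cKO/Control ratio was 0.877 (0.821 to 0.938). Floxed alleles lose only part of the gene, and reads of the remaining exons and of cells without Cre still count, so this is a weak check of the labels. Tendon fibroblast genes were present in all libraries, with 10586, 15431 and 9668 counts of Tnmd and 1055, 686 and 371 counts of Scx. Where 3 counts are listed, here and later, they are those of Control, ScxHt and Dicer cKO in this order. Genes of skeletal muscle, which lies next to the Achilles tendon, were present as well. The 16 muscle genes checked took 6.37% of the Control counts, 3.60% of the ScxHt counts and 11.0% of the Dicer cKO counts, and the 12 tendon fibroblast genes took 14.0%, 12.5% and 8.05%. The tendon share follows Col1a1 and Col1a2. In ScxHt/Control, 9 of these 12 genes had intervals above 1 and 3 below 1, with a list median of 1.28. The shares over all genes tested were 26.4% and 23.8%. In whole tissue, fewer cells of a type and less RNA per cell cannot be told apart.

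As a whole, the ER genes stood highest in the ScxHt library, and the Control and Dicer cKO libraries lay close together. Their counts made up 0.584% of the Control library, 0.859% of the ScxHt library and 0.546% of the Dicer cKO library. Per length of the gene (RPKM), their levels summed to 1624 in Control, 2405 in ScxHt and 1517 in Dicer cKO. The chaperones and disulfide isomerases carried most of this sum and the greater part of the ScxHt excess.

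Levels of different genes are compared per length only. On the RPKM scale, Calr (calreticulin, a calcium-binding lectin chaperone) had the highest level of the 40 genes in Control, at 375. Hsp90b1 (GRP94, the HSP90 of the ER) followed with 192, Pdia3 (a disulfide isomerase that works with calreticulin) with 160.0, Hspa5 (BiP, the HSP70 of the ER) with 134 and Canx (calnexin, the membrane-bound relative of calreticulin) with 71.0. The order of these 5 was the same in all 3 libraries. In ScxHt their levels were 589, 314, 263, 215 and 101 RPKM, and in Dicer cKO they were 345, 191, 149.8, 135 and 76.7 RPKM. Kdelr2, a receptor that returns escaped ER proteins, ranked sixth in Control and Dicer cKO, and Pdia4 took that rank in ScxHt with 98.7 RPKM. At the other end, Sdf2l1 (a BiP cofactor) had 2.78 RPKM and Trib3 (a pseudokinase that dampens ATF4 and CHOP) 0.666 RPKM in Control, and Derl3 was listed at 0. Without a second library of a genotype, whether neighbours in this order differ beyond the spread between mice could not be judged.

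**Figure D2:**
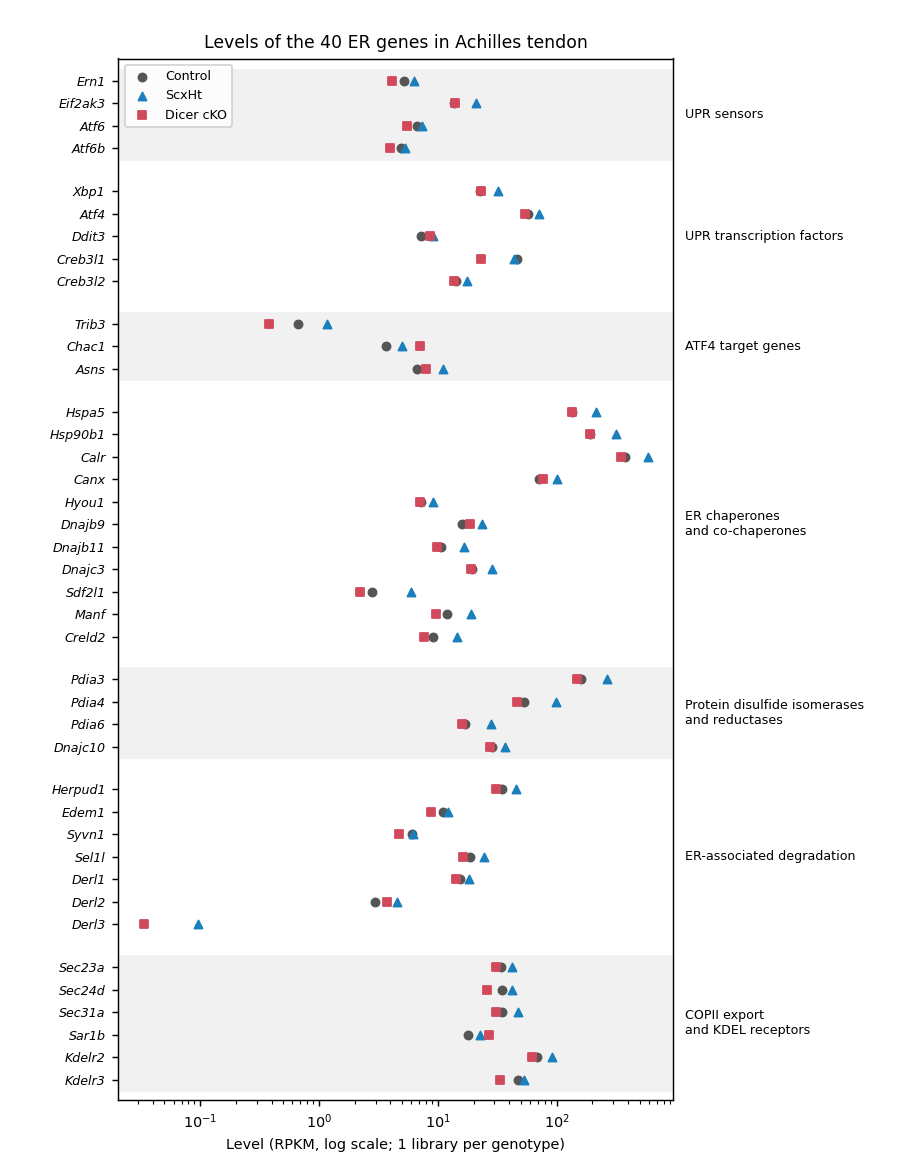
Levels of the 40 ER genes in RPKM on a log scale, grouped by role, with 1 point for each library (Control circles, ScxHt triangles, Dicer cKO squares) and no error bars because each genotype had 1 library. The chaperones and disulfide isomerases have their ScxHt point to the right of both others, Creb3l1 has its Dicer cKO point far to the left (23.0 RPKM against 46.8 in Control), and the Control point of Derl3, at 0, cannot be drawn on this scale.

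Between Dicer cKO and Control, the question was how tendon of ScxCre/+ Dicer f/f mice, whose Dicer1 count was only slightly lower, differed in this machinery. Of the 37 genes with enough counts, 1 was higher (Chac1) and 1 was lower (Creb3l1), at background shares of 3.87% and 4.19% of the 13404 genes tested. The counting interval lay below 1 for 25 of the 37 genes and above 1 for 3 (Chac1, Derl2 and Sar1b), where the shares over all genes were 28.5% and 21.6%. An interval excludes 1 more readily in a gene with many reads, as for Hspa5 at 0.969 (0.941 to 0.998). The ER genes and all genes were not matched for read depth, here or in the other comparisons. The median ratio of the ER genes was 0.886 (median log2 ratio −0.17), and that of all genes tested was −0.03 on the log2 scale. So most ER genes had somewhat fewer reads in Dicer cKO than in Control, within the thresholds. When libraries were scaled by total counts without the muscle list, the ER median was −0.04, and 12 genes had intervals below 1 and 9 above 1. This scaling takes Dicer cKO/Control ratios between 0.909 and 1 to above 1, the median of the 5 UPR transcription factors (0.918 to 1.01) included.

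Between ScxHt and Control, the mice differed in the ScxCre knock-in allele and also in the Dicer alleles, Dicer +/+ against Dicer f/f. With 1 mouse each, these differences and those between single mice cannot be told apart. Of 38 genes, 2 were higher (Sdf2l1 and Pdia4) and none was lower, where 3.03% and 4.71% of the 13462 genes tested were. The counting interval lay above 1 for 29 genes, against 26.4% of all genes, and below 1 for 1 gene, Creb3l1, against 23.8%. The median ratio was 1.26 (log2 0.33), and the median log2 ratio of all genes was 0.02. All 11 chaperones and co-chaperones and all 4 disulfide isomerases and reductases had intervals above 1.

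Between Dicer cKO and ScxHt, which both carry the knock-in, 7 of 38 genes were lower (Sdf2l1, Pdia4, Manf, Creld2, Creb3l1, Pdia6 and Pdia3) and none was higher, where 5.68% and 7.68% of the 13455 genes tested were. The interval lay below 1 for 35 genes, against 30.6% of all genes, and above 1 for 2 (Chac1 and Sar1b), against 24.9%. Ddit3 was the single gene whose interval held 1. The median ratio was 0.715 (log2 −0.48), and the median log2 ratio of all genes was −0.03. Each pair of comparisons shares a library, so these counts are not independent of each other, and a library that stood apart would enter both of its comparisons. Trib3 and Derl3 had too few counts in all comparisons, and Sdf2l1 in Dicer cKO/Control.

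**Figure D3:**
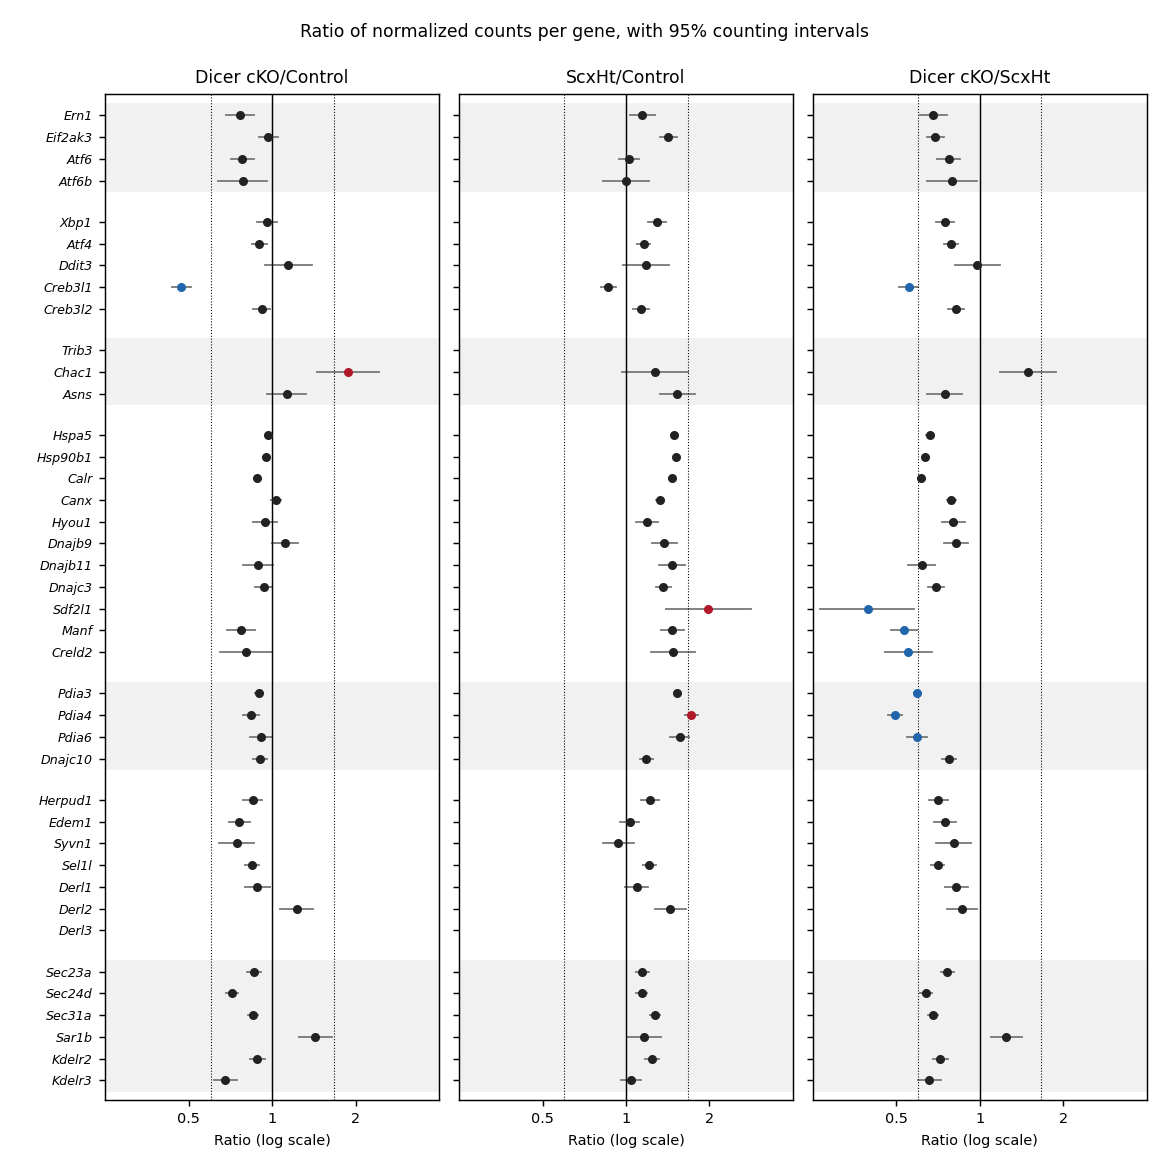
Ratio of normalized counts for each ER gene in the 3 comparisons on a log scale, with 95% counting intervals (horizontal bars, counting error only), a line at 1 and dotted lines at both thresholds. Red points are higher and blue points lower, and genes with a baseMean of 50 or less have no point. The middle panel leans to the right of 1 and the right panel to the left, with Chac1 and Sar1b to the right in the left and right panels.

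**Figure D4:**
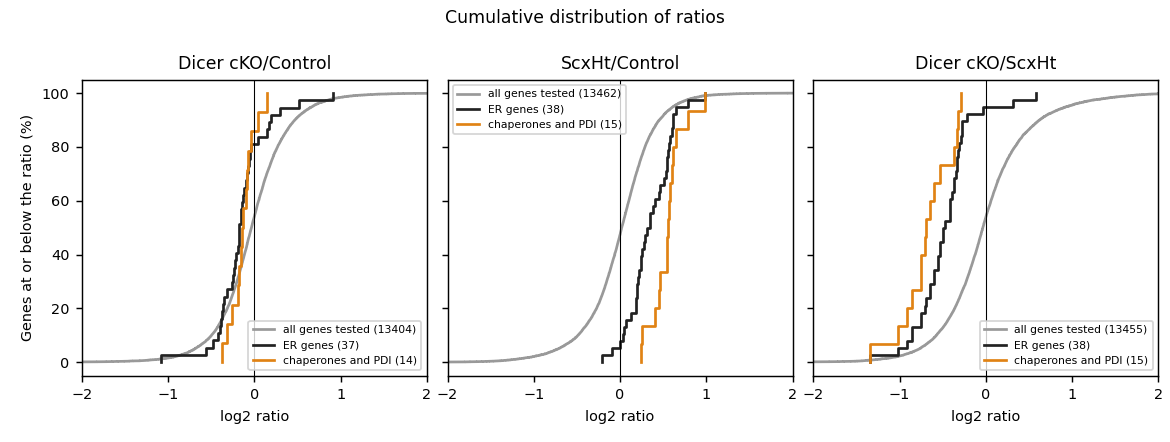
Cumulative share of genes (%) at or below each log2 ratio, for all genes tested (grey), the ER genes (black) and the chaperones and disulfide isomerases with reductases (orange), 1 panel a comparison. The ER curve crosses 50% at −0.17, 0.33 and −0.48 from left to right, where the grey curve crosses at −0.03, 0.02 and −0.03.

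The 4 sensor genes had Dicer cKO/Control ratios between 0.767 and 0.968. Ern1, the kinase and RNase that splices Xbp1, had 686 counts in Control, 821 in ScxHt and 507 in Dicer cKO, so that the Dicer cKO library was lowest. Its ratios were 0.767 (0.683 to 0.862) against Control and 0.681 (0.608 to 0.761) against ScxHt. Atf6 had 1013, 1084 and 760 counts and a Dicer cKO/Control ratio of 0.779 (0.708 to 0.857), and its weaker paralog Atf6b had 219, 229 and 165 counts and a ratio of 0.782 (0.635 to 0.962). Both were level between ScxHt and Control, with ratios of 1.02 (0.940 to 1.12) and 1.0 (0.829 to 1.21). Eif2ak3, the PERK kinase, went another way and was high in ScxHt, with 1345, 1999 and 1254 counts. Its ScxHt/Control ratio was 1.42 (1.33 to 1.53), and its Dicer cKO/Control interval held 1 at 0.968 (0.896 to 1.05). None of the sensors passed a threshold.

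Among the 5 transcription factors, Creb3l1 stood apart. Creb3l1 (OASIS, chromosome 2, 91982328 to 92024502, minus strand) is an ER-anchored factor that is released by cleavage like ATF6 and is known to act on collagen I transcription in osteoblasts. It had 1980 counts in Control, 1785 in ScxHt and 897 in Dicer cKO. The Dicer cKO library was the low one, at a ratio of 0.470 (0.434 to 0.509) to Control and 0.554 (0.510 to 0.60) to ScxHt, while ScxHt/Control was 0.864 (0.810 to 0.921). Its level per length went from 46.8 RPKM in Control to 23.0 in Dicer cKO. The levels of its relative Creb3l2, which is known to act on COPII genes in cartilage, were nearer to each other, with 1701, 2012 and 1503 counts and a Dicer cKO/Control ratio of 0.918 (0.856 to 0.984). Genes that mark bone and cartilage were also mostly lower in Dicer cKO, but did not follow Creb3l1 throughout. Of the 6 tested, 4 were called lower in Dicer cKO/Control, where 4.19% of all genes tested were. In ScxHt/Control 2 had intervals above 1, 2 had intervals below 1 and 2 had intervals that held 1. The shares over all genes tested were 26.4% above 1 and 23.8% below 1. The 10 osteoblast and chondrocyte genes checked took 0.157% of the counts in Control, 0.182% in ScxHt and 0.0730% in Dicer cKO. This share follows Chad, with 16553, 17282 and 6389 counts. Of this list, the defining osteoblast genes Bglap (0, 0 and 0 counts) and Sp7 (0, 3 and 0 counts) were at or near 0, while Ibsp, a matrix gene of bone, had 2141, 3033 and 583 counts and a Dicer cKO/Control ratio of 0.283 (0.258 to 0.310). The tendon fibroblast genes were also lower in Dicer cKO, with a list median ratio of 0.558 to Control and 0.507 to ScxHt. The part of either in the Creb3l1 ratio was not tested.

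The factors that ER stress itself raises did not share this pattern. Xbp1 had 1206, 1635 and 1113 counts, with a ScxHt/Control ratio of 1.30 (1.21 to 1.40) and a Dicer cKO/Control interval that held 1, at 0.958 (0.883 to 1.04). Atf4 had 2194, 2651 and 1899 counts and a Dicer cKO/Control ratio of 0.899 (0.845 to 0.956). Ddit3, which encodes the pro-apoptotic factor CHOP, had 200, 247 and 220 counts. Its 3 intervals all held 1, with ratios of 1.14 (0.939 to 1.39) in Dicer cKO/Control, 1.18 (0.978 to 1.43) in ScxHt/Control and 0.982 (0.815 to 1.18) in Dicer cKO/ScxHt. At this depth a difference of Ddit3 between genotypes was not detectable.

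Of the 3 target genes of ATF4, the 2 with enough counts differed from each other. Chac1 (chromosome 2, 119351229 to 119354381, plus strand), an enzyme that degrades glutathione, had 97 counts in Control, 129 in ScxHt and 175 in Dicer cKO. It was the highest in Dicer cKO, at 1.87 (1.45 to 2.43) times Control and 1.5 (1.18 to 1.89) times ScxHt, and its ScxHt/Control interval held 1 at 1.27 (0.971 to 1.68). It was the single ER gene called higher in Dicer cKO/Control, and its interval reaches below that threshold. Asns, asparagine synthetase, was instead highest in ScxHt, with 298, 477 and 324 counts. Its ratio was 1.53 (1.32 to 1.78) in ScxHt/Control and its interval held 1 in Dicer cKO/Control, at 1.13 (0.962 to 1.33). In Dicer cKO/ScxHt, Asns lay below 1, at 0.749 (0.648 to 0.864), where Chac1 lay above 1. Trib3 had 23, 39 and 12 counts, under the minimum, so its direction could not be judged. All 3 genes hold a CARE.

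The chaperones and co-chaperones gave the clearest pattern of the ER genes. In ScxHt all 11 were above Control, with a median ratio of 1.46 and a range of 1.19 (Hyou1) to 1.97 (Sdf2l1), and in Dicer cKO all 11 were below ScxHt, with a median of 0.636. Against Control, 10 could be tested in Dicer cKO, with a median of 0.936. Of their intervals, 5 lay below 1, against 28.5% of all genes tested, and 5 held 1. Scaled without the muscle list, the median lay on the other side of 1, at 1.03. Hspa5 (chromosome 2, 34771970 to 34777547, plus strand) had 9184 counts in Control, 14309 in ScxHt and 8570 in Dicer cKO. ScxHt was the high library, at a ratio of 1.49 (1.45 to 1.53), and the remaining pair was nearly level, at 0.969 (0.941 to 0.998). Hsp90b1 (chromosome 10, 86690209 to 86705509, minus strand) had 12590, 19986 and 11544 counts, at ratios of 1.52 (1.49 to 1.55) in ScxHt/Control and 0.952 (0.928 to 0.977) in Dicer cKO/Control. Calr (chromosome 8, 84841850 to 84846934, minus strand) had 17550, 26748 and 14858 counts, the highest of all ER genes. Its ratios were 1.46 (1.43 to 1.49) and 0.879 (0.860 to 0.899). Canx, with 5416, 7504 and 5385 counts, showed the same order of ScxHt over both others, and its Dicer cKO/Control interval held 1 at 1.03 (0.994 to 1.07).

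The cofactors of BiP varied more. Sdf2l1 (chromosome 16, 17130138 to 17132383, minus strand), which keeps BiP clients soluble, had 50 counts in Control, 103 in ScxHt and 37 in Dicer cKO. Its ScxHt/Control ratio of 1.97 (1.39 to 2.82) and its Dicer cKO/ScxHt ratio of 0.396 (0.264 to 0.582) were the most distant from 1 of all ER genes tested in these comparisons, and they rest on few reads. Manf, a secreted BiP cofactor, had 685, 1053 and 508 counts and a Dicer cKO/ScxHt ratio of 0.532 (0.477 to 0.592). Creld2, a disulfide isomerase-like secreted protein, had 204, 315 and 158 counts and a ratio of 0.553 (0.454 to 0.671). These 2 genes were also lower in Dicer cKO than in Control, at 0.770 (0.685 to 0.865) and 0.804 (0.649 to 0.995), within the threshold. Of the J-domain partners of BiP, Dnajb9 had 665, 956 and 711 counts, Dnajb11 560, 854 and 478, and Dnajc3 1623, 2315 and 1457. All were highest in ScxHt, and their Dicer cKO/Control intervals held 1, at ratios of 1.11, 0.886 and 0.932. Hyou1, the large HSP70 that exchanges nucleotide on BiP, had 844, 1049 and 764 counts and the smallest ScxHt/Control ratio of the list.

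Disulfide bonds of procollagen and other secreted proteins are made and shuffled by the protein disulfide isomerases, and this group had the highest ScxHt/Control median of the roles, at 1.55. Pdia4 (chromosome 6, 47796141 to 47813430, minus strand) had 2078 counts in Control, 3735 in ScxHt and 1676 in Dicer cKO. ScxHt exceeded both others, with a ratio of 1.72 (1.63 to 1.82) to Control, and Dicer cKO/ScxHt was 0.495 (0.467 to 0.524). Pdia3 had 8160, 13038 and 7033 counts, and Pdia6 1025, 1672 and 899. In ScxHt they stood at 1.53 (1.49 to 1.57) and 1.56 (1.45 to 1.69) times Control, within the threshold, and their Dicer cKO/ScxHt ratios of 0.595 (0.577 to 0.612) and 0.593 (0.546 to 0.643) lay just past 0.60. TMM scaling took Pdia3 to 0.601, and scaling without the muscle list took Pdia3 to 0.616 and Pdia6 to 0.614, outside the call. Dnajc10, which reduces disulfides of proteins bound for degradation, moved least, with 2348, 2907 and 2048 counts and a ScxHt/Control ratio of 1.19 (1.12 to 1.25). In Dicer cKO/Control the 4 genes lay between 0.838 and 0.911, all with intervals below 1, against 28.5% of all genes tested.

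Genes of ER-associated degradation, which returns misfolded protein to the cytosol for the proteasome, were nearer to level in ScxHt and slightly lower in Dicer cKO. The median of the 6 tested genes was 1.15 in ScxHt/Control, 0.847 in Dicer cKO/Control and 0.777 in Dicer cKO/ScxHt. Edem1, a lectin that marks glycoproteins for removal, had 1161, 1251 and 851 counts, and the ubiquitin ligase Syvn1 (HRD1) had 472, 463 and 338. Both were level between ScxHt and Control, at 1.03 (0.952 to 1.12) and 0.940 (0.825 to 1.07), and below 1 in Dicer cKO/Control, at 0.761 (0.696 to 0.832) and 0.744 (0.645 to 0.857). Sel1l, the partner of HRD1, had 2583, 3275 and 2099 counts, and Herpud1, which recruits the complex, had 1318, 1677 and 1079. Both were highest in ScxHt, at 1.21 (1.15 to 1.28) and 1.22 (1.13 to 1.31) times Control. Of the derlins, which form part of the exit channel, Derl1 had 838, 955 and 714 counts. Derl2 had 386, 582 and 455 counts, and its Dicer cKO/Control interval lay above 1, at 1.22 (1.07 to 1.41). Derl2 overlaps Mis12 on the opposite strand over 231 exonic bases, Mis12 had 251, 430 and 339 counts, and the strand setting of the counting is not given, so that reads of the pair may not be fully apart. Opposite-strand genes also overlap exons of Ddit3, Eif2ak3, Hsp90b1, Manf, Sec23a and Syvn1, by 68 to 431 bases. Derl3 had 0, 3 and 1 counts, at or under the 3 counts that a count of 0 allows, and no ratio is given.

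The 6 export genes differed among themselves. Sec24d, the cargo-binding subunit of the COPII coat, had 3570 counts in Control, 4244 in ScxHt and 2457 in Dicer cKO. The Dicer cKO library was the lowest, at 0.715 (0.679 to 0.752) of Control and 0.638 (0.607 to 0.671) of ScxHt. Kdelr3, a receptor for the KDEL retrieval signal, had 1088, 1187 and 709 counts and a similar set of ratios, 0.677 (0.615 to 0.745) and 0.658 (0.599 to 0.723). The inner and outer coat genes Sec23a (2679, 3207 and 2219 counts) and Sec31a (4427, 5888 and 3639 counts) lay at 0.860 (0.813 to 0.910) and 0.854 (0.817 to 0.892) of Control in Dicer cKO, and Kdelr2 (2014, 2619 and 1715 counts) at 0.884 (0.829 to 0.944). Sar1b (chromosome 11, 51763687 to 51791925, plus strand), a GTPase that starts coat assembly and is known for the export of large cargo, was the exception among the 6. It had 368 counts in Control, 447 in ScxHt and 506 in Dicer cKO, so that Dicer cKO was highest, at 1.43 (1.25 to 1.64) times Control and 1.25 (1.10 to 1.42) times ScxHt. None of these 6 genes passed a threshold in Dicer cKO/Control.

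Set beside the promoter motifs, the genes with an ERSE or ERSE-II had higher ScxHt/Control ratios than the others of the list. Of these 11 genes, 10 had enough counts, with a median of 1.46. The interval lay above 1 for 9, against 26.4% of all genes tested, the exception being Syvn1. The 3 genes with a UPRE (Kdelr3, Sec23a and Sec24d) had a median of 1.14, the 3 tested genes with a CARE 1.27, and the 17 genes with none of the motifs 1.21. In Dicer cKO/Control the medians were 0.898 for ERSE or ERSE-II, 0.715 for UPRE, 1.13 for CARE and 0.902 for none. The same genes make up roles and motif groups (8 of the 11 ERSE or ERSE-II genes are chaperones or disulfide isomerases), so the motif and the role cannot be told apart here. Sdf2l1 and Pdia4, the highest of the ScxHt/Control ratios, held none of the 4 motifs in their windows. These differences between groups of genes were not tested.

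The levels of the folding genes were also set against those of fibrillar collagen, which tendon fibroblasts fold in the ER, a grouping chosen after the values were seen. The 15 chaperones and disulfide isomerases with reductases summed to 1108 RPKM in Control, 1764 in ScxHt and 1063 in Dicer cKO. Col1a1, Col1a2 and Col3a1 together had 15700 RPKM in Control, 12830 in ScxHt and 9047 in Dicer cKO. Per 100 RPKM of collagen, the folding genes amounted to 7.06 RPKM in Control, 13.7 in ScxHt and 11.7 in Dicer cKO. So the folding genes were near the Control level in Dicer cKO while collagen was lower, and in ScxHt the folding genes were higher with the collagen sum also below Control. That sum follows Col1a1 and Col1a2, and Col3a1 went the other way in ScxHt, with 524 RPKM against 356 in Control. Folding genes and collagens need not come from the same cells of the tissue. The muscle genes took 6.37%, 3.60% and 11.0% of the counts, and the tendon fibroblast genes 14.0%, 12.5% and 8.05%. The part of the cell mix in the folding to collagen ratio was not tested.

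**Figure D5:**
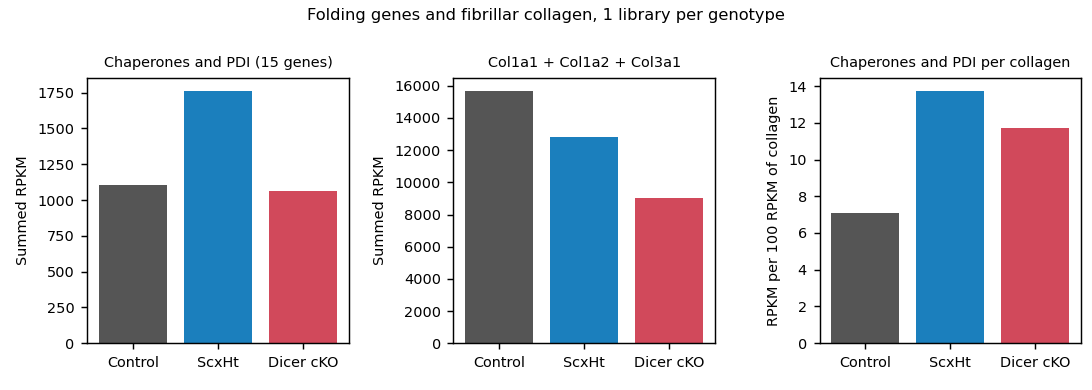
Summed RPKM of the 15 chaperones and disulfide isomerases with reductases (left), of Col1a1, Col1a2 and Col3a1 (middle), and the former per 100 RPKM of the latter (right), with 1 bar for each library, axes from 0 and no error bars because each genotype had 1 library. The Control bar is lowest in the right panel at 7.06, with ScxHt at 13.7 and Dicer cKO at 11.7.

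Other genes of the same pathways, 109 in 6 lists, were displaced in the same directions. Their median ratio was 0.880 in Dicer cKO/Control, 1.16 in ScxHt/Control and 0.824 in Dicer cKO/ScxHt, over 107, 107 and 106 genes. In Dicer cKO/Control 1 was higher (0.935%) and 5 were lower (4.67%), where the shares over all genes were 3.87% and 4.19%. In ScxHt/Control these were 3 (2.80%) and 4 (3.74%), against 3.03% and 4.71%. In Dicer cKO/ScxHt they were 3 (2.83%) and 10 (9.43%), against 7.68% and 5.68%. The list of other UPR regulators was about level in ScxHt/Control, with a median log2 ratio of −0.04. Of its 8 tested genes, 4 had ratios above 1 and 4 below 1, and 2 were called lower. The interval held 1 for 5 of them, lay above 1 for 1 and below 1 for 2. The 20 other folding genes included P4hb, the disulfide isomerase that is also the beta subunit of the collagen prolyl hydroxylase, with 8616, 15271 and 7540 counts. It repeated the pattern of Pdia4, at 1.70 (1.65 to 1.74) in ScxHt/Control and 0.544 (0.529 to 0.559) in Dicer cKO/ScxHt. The 17 genes of the translocon and signal peptidase, through which new chains enter the ER, all had ScxHt/Control intervals above 1. The share over all genes tested was 26.4%. Their median was 1.38 in ScxHt/Control and 0.923 in Dicer cKO/Control. The latter became 1.02 under scaling without the muscle list. The 20 other COPII and cargo export genes had medians of 1.09 and 0.870, and the 15 other degradation genes 1.10 and 0.903. Of the other COPII genes, Kdelr1, the third KDEL receptor, had 705, 701 and 364 counts and was lower in Dicer cKO, at 0.536 (0.471 to 0.609) of Control.

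The 27 other genes of ATF4 and the integrated stress response were mixed. Psat1, an enzyme of serine synthesis, had 100, 168 and 213 counts and was the single gene of the 109 called higher in Dicer cKO/Control, at 2.21 (1.74 to 2.83). Atf3 and Ddit4, stress genes that answer to ATF4 and to many other signals, had 267, 83 and 97 counts and 779, 235 and 276 counts. They were high in the Control library, with Dicer cKO/Control ratios of 0.377 (0.296 to 0.478) and 0.368 (0.320 to 0.423) and ScxHt/Control ratios of 0.298 (0.230 to 0.382) and 0.289 (0.249 to 0.335). The amino acid transporter Slc7a5 had 519, 433 and 292 counts and was lower in Dicer cKO, at 0.584 (0.504 to 0.676). Sesn2, a stress-induced regulator of mTORC1, had 58, 155 and 61 counts and was highest in ScxHt, at 2.56 (1.88 to 3.52) times Control. Of the 10 other UPR regulators, the liver and gut factor Creb3l3 had 191, 110 and 92 counts and a Dicer cKO/Control ratio of 0.50 (0.386 to 0.645), and Ern2, the epithelial IRE1, had no counts.

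Marker genes of other cells also differed between the libraries. The 8 macrophage genes checked took 0.0236% of the counts in Control, 0.0441% in ScxHt and 0.0188% in Dicer cKO. All 8 had ScxHt/Control intervals above 1, against 26.4% of all genes tested, with a median of 1.71. Of these, 7 were called higher, against 3.03%. The 8 endothelial genes went the other way, with 0.0699%, 0.0509% and 0.0795% of the counts and a ScxHt/Control median of 0.658. The 8 Schwann cell genes took 0.0233%, 0.0305% and 0.0709%, and the 6 adipocyte genes 0.0760%, 0.0916% and 0.0824%. Plasma cells, which carry a very large ER, were scarcely represented, since 9 of the 10 plasma and B cell genes had at most 10 reads in any library (Jchain 0, 0 and 4, Mzb1 5, 4 and 0) and Ighm had 292, 245 and 246. Muscle genes were lowest in ScxHt (3.60%) and highest in Dicer cKO (11.0%), the opposite order to that of the chaperones. This share follows Ttn (688745, 329060 and 1062032 counts). In ScxHt/Control, 12 of the 16 muscle genes had intervals below 1, against 23.8% of all genes tested, and the list median was 0.783. The other 4 had intervals above 1, against 26.4%, among them Myh4 at 4.70 (4.58 to 4.81) and Pvalb at 3.22 (2.97 to 3.51). The tendon fibroblast genes had a ScxHt/Control list median of 1.28, beside the ER median of 1.26. In the other comparisons their medians were further below 1 than those of the ER genes. These were 0.558 against 0.886 in Dicer cKO/Control, and 0.507 against 0.715 in Dicer cKO/ScxHt. The part of muscle, macrophage and the other cells in the ER gene ratios was not tested.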

How the data were processed

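Total RNA from Achilles tendon was sequenced from both ends on an Illumina HiSeq instrument, with a single library for each genotype. For the gene table, the authors trimmed adaptors, aligned to GRCm38 by TopHat with Bowtie2 and counted reads per gene by HTSeq, and the raw counts were deposited. The deposited RPKM equal these counts per length and per total in all 7683 genes checked (within 1%). Versions, annotation release and strand setting are not given in the sources used here. Of 54189 lines, 463 that repeated an earlier line were left out. The small RNA-seq libraries were not used here.

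DESeq2 1.42.0 (R 4.3.3) gave the size factors, estimated separately in each pair of libraries. Ratios and their 95% Clopper-Pearson intervals came from scipy 1.17.1, pandas 2.3.3 and numpy 2.4.6 under Python 3.11.15, in code tested on simulated data. Figures were drawn with matplotlib 3.10.9. PCR reads without molecular identifiers are not independent molecules, and intervals cover counting error only. Gene positions came from GENCODE vM21 (GRCm38) and promoters from RefSeq (GRCm38.p6). The members and lists were chosen with earlier results of these data known. Named were all members, the pathway genes past a threshold in Dicer cKO/Control, Dicer1 and up to 2 markers a list. P4hb, Sar1a, Sesn2, Ern2, Ighm, Ibsp, Chad, Ttn, Myh4, Pvalb and the 3 collagens were chosen after their values were seen. The scalings tried besides were TMM (edgeR 4.0.16), total counts, a joint estimate of the 3 size factors, and totals that leave out features over 1% of a library or the muscle list. Further alternatives were other minimum baseMeans, other thresholds, the whole interval past the threshold, and a pseudocount of 1.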

Additional observations from a re-analysis of the deposited data

How the results depend on the processing

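The median log2 ratio over all members kept its sign in each comparison under every alternative run. Scaling without the muscle list turned the Dicer cKO/Control medians of the chaperones (0.04), the UPR transcription factors (0.01) and the translocon list (0.02) positive, and total counts (0.06) and the muscle-free scaling (0.02) did so for the ScxHt/Control median of the other UPR regulators. No member ratio past a threshold changed direction. Scaling by total counts without the muscle list, chosen after seeing the data as were all alternatives for the counts of intervals, shifted every Dicer cKO/Control log2 ratio by 0.14 and moved the ER median from −0.17 to −0.04, with 9 intervals above 1 and 12 below 1 in place of 3 and 25. The count above 1 was 5 with TMM, 5 with size factors over all 3 libraries, 5 without features above 1% of a library, and 6 with total counts. Total counts shifted every ScxHt/Control log2 ratio by 0.11, with 631 genes higher and 459 lower against 408 and 634, and the muscle-free scaling gave 855 and 328 in Dicer cKO/Control against 519 and 561.

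In Dicer cKO/Control, 2 members were lower at a minimum baseMean of 10 and 2 with no minimum (Trib3 being added), and the count of higher members was 0 at a minimum of 200, 0 at thresholds of 2 and 0.5, 0 with the whole interval past the threshold, and 2 with no minimum, where Derl3 enters on 1 read against 0. In ScxHt/Control the count of higher members was 1 at a minimum of 200, 0 at thresholds of 2 and 0.5, 6 at 1.5 and 0.67, and 0 with the whole interval. In Dicer cKO/ScxHt the count of lower members was 2 at thresholds of 2 and 0.5, 13 at 1.5 and 0.67, and 3 with the whole interval. It was 6 with TMM scaling, which ends the call of Pdia3, and 5 without the muscle list, which ends those of Pdia3 and Pdia6. Single ratios of the members moved beyond their interval in 34 of 113 cases without the muscle list and in 29 with total counts, and in none with TMM, size factors over all 3 libraries, totals without features above 1% or a pseudocount of 1. No paired analysis was possible because each genotype had 1 library and the labels give no shared replicate numbers. Members with few reads, such as Sdf2l1 and Chac1, have wide intervals, and the spread between mice cannot be estimated from these libraries.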
